A study of Rattus norvegicus with 6 samples.

Results

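Gad1 and Gad2 encode the 2 forms of glutamate decarboxylase, the enzyme that makes the inhibitory transmitter GABA from glutamate. They were followed in primary hippocampal neuron cultures given palmitic acid, a saturated fatty acid, or vehicle. The 2 genes were chosen by name from 31998 gene rows of a count table, as the Ensembl rat identifiers ENSRNOG00000000007 (Gad1) and ENSRNOG00000018200 (Gad2). The cultures came from hippocampi of Wistar rat embryos at day 17 of gestation and were used after 12 days in vitro. All received cytosine arabinoside at 10 µM on day 3, which limits dividing non-neuronal cells. The vehicle group held 3 cultures, from the specimens labelled 1, 4 and 5. The palmitic acid group held 3 cultures from the same specimens, at 200 µM, carried on bovine serum albumin. Neither the length of exposure nor the number of embryos behind a specimen is given in the sources used here. The libraries were made with a stranded mRNA kit per the labels' protocols, whereas the design text names ribosomal RNA depletion and 2 cultures per group.

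GABA is made in inhibitory neurons, which are a minority of the neurons of the hippocampus and come in many subtypes. Gad1 encodes GAD67, found throughout the cell and largely saturated with its cofactor pyridoxal phosphate, and it supplies most of the GABA in the brain. Gad2 encodes GAD65, which is enriched at axon terminals and bound to synaptic vesicles, and much of it lacks the cofactor until demand rises. Transcripts of both genes are standard markers of inhibitory neurons. In a bulk culture, however, fewer inhibitory neurons and less Gad RNA per neuron cannot be told apart.

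The sequences upstream of the 2 genes are shown as a description only. Both genes were higher in the cultures of specimen 4, as described below, but no genomic sequence of any specimen was examined. The sequences are taken from RefSeq on the GRCr8 assembly, where 2 of 2 symbols matched, and lie on the plus strand. Each stretch stops at the base before the outermost annotated start of its gene, and capitals mark the letters TATAAA, the core of a TATA box. The Gad1 stretch is chr3:75777202-75777259, with 58 bases, and the Gad2 stretch is chr17:89671468-89671717, with 250 bases.
Gad1: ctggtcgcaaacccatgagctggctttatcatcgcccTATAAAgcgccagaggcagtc
Gad2: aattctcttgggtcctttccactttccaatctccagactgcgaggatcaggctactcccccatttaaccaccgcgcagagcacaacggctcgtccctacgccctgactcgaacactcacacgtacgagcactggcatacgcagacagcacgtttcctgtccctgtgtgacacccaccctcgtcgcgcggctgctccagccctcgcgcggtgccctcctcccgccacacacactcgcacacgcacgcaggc

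In the full 300-base RefSeq windows, searched on both strands, TATAAA occurred 1 time for Gad1 and 0 times for Gad2, and 14.2% of 33469 rat promoters of the same length held it. The Gad1 match starts 21 bases before the outermost annotated start. The GC box GGGCGG, bound by SP1 family factors, occurred 1 time for Gad1, outside the stretch shown, and 0 times for Gad2, against 33.1% of all promoters. TAATTA, a homeodomain core motif, and TGACGTCA, the cAMP response element, occurred 0 times in either window, against 5.36% and 1.83% of all promoters. None of these matches overlapped. The windows held 26 CpG dinucleotides for Gad1 and 29 for Gad2, where the median over all promoters was 7. GC content was 67.7% and 63.7%, against a median of 51.7%. Both windows were thus CpG-rich, and the letters TATAAA were found only in the Gad1 window of the 2. The windows are not placed alike. Only 58 bases of the Gad1 window lie before the outermost annotated start, against 250 of the Gad2 window, and the rest lie past it. These matches are descriptions of sequence, and no binding was measured.

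Library totals ran from 15875411 to 18241773 counts, and 17213 to 17940 genes were detected in each. The specimen 4 libraries stood apart. With treatment as a covariate, 32.5% of 13938 genes tested differed between specimens 4 and 1, and 34.7% between specimens 5 and 4, against 2.92% between specimens 5 and 1 (edgeR quasi-likelihood test, Benjamini-Hochberg adjusted p under 0.05). The count behind the last share, 407 genes, was 1442 without the vehicle library of specimen 4 and 1459 without its palmitic acid library. It was 190 and 135 without the vehicle or the palmitic acid library of specimen 5, 141 without the palmitic acid library of specimen 1, 877 in DESeq2 and 691 with no filter. For specimens 4 and 1 the count of 4528 fell to 2718 without the palmitic acid library of specimen 1. For specimens 5 and 4 the count of 4830 fell to 2719 and 2542 without the vehicle or the palmitic acid library of specimen 5. Results below are therefore given by specimen. The deposited table gives no gene names, so markers of excitatory neurons, glia and inhibitory neuron subtypes were not checked here, and the part of culture makeup in any difference was not tested. Gad1 and Gad2, as defining markers of inhibitory neurons, were present in every culture.

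Gad1, the GAD67 gene, drew at least 11112 reads in every culture. With vehicle it had 11112 reads in specimen 1, 17991 in specimen 4 and 11818 in specimen 5. With palmitic acid it had 12573, 17341 and 13704 reads in the same order. As CPM (counts scaled to a common library total, with edgeR's TMM factors) the vehicle levels were 666, 1167 and 676, and the palmitic acid levels 717.1, 957.6 and 749.1. Specimen 4 was highest under either treatment, and specimens 1 and 5 lay close together. By reads, which are not corrected for gene length, Gad1 took rank 71 in both libraries of specimen 4 and ranks 120 to 153 in the other 4 libraries.

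Gad2 showed a wider range over the same cultures. Its vehicle reads were 11192, 35735 and 14237 in specimens 1, 4 and 5, and its palmitic acid reads 10717, 42542 and 16772. The vehicle levels were 670.8, 2318 and 814.4 CPM, and the palmitic acid levels 611.2, 2349 and 916.8 CPM. The order was specimen 4, then 5, then 1 under either treatment, with specimen 4 far above the rest. By reads, again with no correction for length, Gad2 took rank 20 in the vehicle library of specimen 4, rank 14 in its palmitic acid library and ranks 86 to 189 in the other 4 libraries. At these depths counting error is small: the exact 95% Poisson interval of the lowest level, 611.2 CPM, ran from 599.7 to 622.9, which covers counting error only.

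Together the 2 genes made up 0.135% of all counts in the vehicle culture of specimen 1, 0.338% in that of specimen 4 and 0.149% in that of specimen 5. The palmitic acid cultures gave 0.132%, 0.338% and 0.167%. This unscaled summed share was more than 2-fold higher in specimen 4 than in either other specimen under both treatments. It was the same in both cultures of specimen 4 to 3 digits, with fewer Gad1 and more Gad2 reads under palmitic acid. On TMM-scaled totals the sums were 1337, 3485 and 1490 CPM with vehicle and 1328, 3307 and 1666 CPM with palmitic acid. On that scale specimen 4 was slightly less than 2-fold above specimen 5 with palmitic acid, and its own 2 cultures were not equal.

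**Figure D1:**
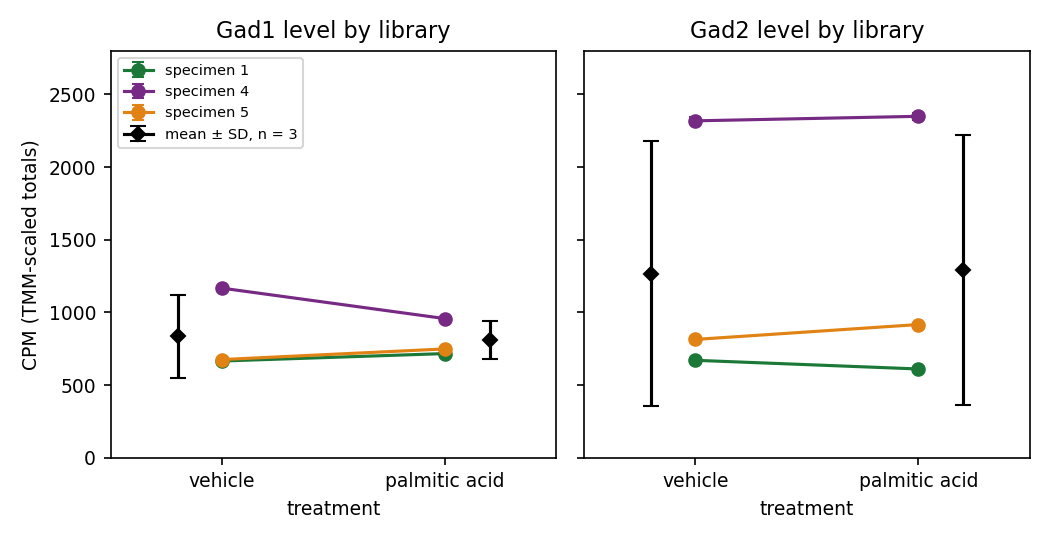
Level of Gad1 (left) and Gad2 (right) in CPM on TMM-scaled totals, by treatment. Circles are single libraries, joined by specimen, with exact 95% counting intervals that are mostly smaller than the symbol. Black diamonds are group means with SD over 3 cultures. Specimen 4 lies on top in both panels, at 957.6 to 1167 CPM for Gad1 and 2318 to 2349 CPM for Gad2.

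Palmitic acid against vehicle asks whether the fatty acid changed transcripts for GABA synthesis, and no difference was shown for either gene. Gad1 averaged 836.3 ± 286 CPM in the vehicle cultures and 807.9 ± 131 CPM in those given palmitic acid (SD over 3 cultures). Gad2 averaged 1268 ± 912 and 1292 ± 928 CPM (SD over 3 cultures). The groups overlapped for both genes, as they did for all but 3.3% of genes, and specimen 4 lay farthest from the mean in each group.

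With cultures paired by specimen, the Gad1 log2 fold change was -0.01 ± 0.15 (SE; edgeR quasi-likelihood test, adjusted p = 0.997). Its 95% interval ran from -0.36 to 0.34, or 0.779-fold to 1.27-fold. The Gad2 log2 fold change was 0.02 ± 0.14 (SE; same edgeR test, adjusted p = 0.992), with a 95% interval from -0.32 to 0.35, or 0.803-fold to 1.28-fold. The intervals hold both a moderate rise and a moderate fall of either gene. The median log2 fold change over all genes tested was -0.004. Of all 13938 genes, 0% were called in this comparison, with 493 genes at an unadjusted p under 0.05. Limma with the same pairing had 0 calls and 557 genes at that unadjusted level, while DESeq2 with pairing made 6 calls, which did not include Gad1 (adjusted p = 1) or Gad2 (adjusted p = 1). Without the pairing, the edgeR log2 fold change was -0.05 ± 0.28 (SE) for Gad1 and 0.03 ± 0.68 for Gad2, both with adjusted p = 1. Without specimen 4, the paired edgeR log2 fold change was 0.13 for Gad1 (adjusted p = 0.893) and 0.02 for Gad2 (adjusted p = 0.992).

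Within specimens, both genes lay on the same side of vehicle only in specimen 5. Gad1 was 1.08 times its vehicle level in specimen 1 (exact 95% counting interval 1.05 to 1.1), 0.821 times in specimen 4 (0.804 to 0.838) and 1.11 times in specimen 5 (1.08 to 1.14). Gad2, the GAD65 gene, was 0.911 times its vehicle level in specimen 1 (0.887 to 0.936), 1.01 times in specimen 4 (1 to 1.03) and 1.13 times in specimen 5 (1.1 to 1.15). Each gene was thus higher with palmitic acid in 2 of 3 specimens, but not in the same 2. A common sign in all 3 specimens was seen at 26.7% of genes. The same signs held on unscaled totals and with DESeq2 size factors. An exact sign-flip permutation test over the 3 specimens (two-sided) gave p = 1 for Gad1 and p = 0.75 for Gad2, where the smallest p that 3 pairs allow is 0.25.

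The counting intervals leave out the spread between cultures, and each specimen had 1 culture per treatment. Among 601 abundant genes (mean log2 CPM of at least 8), the log2 changes had SDs of 0.24, 0.37 and 0.13 for specimens 1, 4 and 5. The log2 changes of Gad1 were 0.11, -0.29 and 0.15 in the same order, and those of Gad2 were -0.13, 0.02 and 0.17. In specimens 1 and 4 both genes changed by less than that SD, and in specimen 5 both slightly exceeded it.

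**Figure D2:**
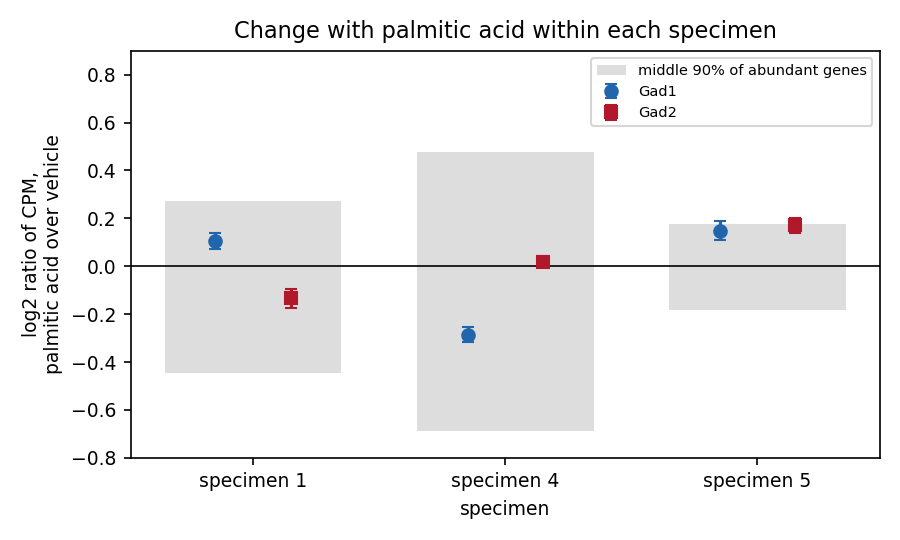
Log2 ratio of CPM, palmitic acid over vehicle, for Gad1 (circles) and Gad2 (squares) in each specimen, with exact 95% counting intervals. Grey bars span the middle 90% of 601 abundant genes in that specimen. All 6 points lie inside the grey bars, and Gad1 falls below 0 in specimen 4 where Gad2 lies near 0.

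The cultures of specimen 4 held more Gad1 and Gad2 transcript than those of the other specimens. Gad2 was 3.64-fold higher in specimen 4 than in specimen 1, a log2 fold change of 1.86 ± 0.18 (SE; edgeR quasi-likelihood test with treatment as a covariate, adjusted p = 0.00061). Its 95% interval ran from 2.71-fold to 4.88-fold. Gad1 was 1.54-fold higher, a log2 fold change of 0.62 ± 0.18 (SE; same edgeR test, adjusted p = 0.0404), with an interval from 1.14-fold to 2.07-fold. Both members were called, where 13.4% of all genes were called higher in specimen 4 and the median log2 fold change over all genes was -0.015. Each specimen entered with 1 culture per treatment, so these p-values describe these cultures only.

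Specimen 5 against specimen 4 gave the same order. The Gad2 log2 fold change was -1.43 ± 0.17 (SE; edgeR, adjusted p = 0.0015), a level 0.371 times that of specimen 4. For Gad1 the value was -0.58 ± 0.18 (SE; edgeR, adjusted p = 0.0485), or 0.671 times, and 14% of all genes were called lower in specimen 5. Between specimens 5 and 1 neither gene passed. There the Gad2 log2 fold change was 0.43 ± 0.17 (SE; edgeR, adjusted p = 0.222; 95% interval 0.02 to 0.84) and that of Gad1 was 0.04 ± 0.18 (adjusted p = 0.914; -0.38 to 0.47), with 2.92% of all genes called in either direction, a share that moves with single libraries as given above.

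Leaving out single libraries kept the Gad2 calls of specimen 4 but lost Gad1 calls in several fits. Such fits have fewer degrees of freedom, and in the main fit Gad1 was already near the threshold (edgeR adjusted p = 0.0404 against specimen 1 and 0.0485 for specimen 5 against 4). A lost Gad1 call therefore does not by itself show a smaller difference. The main log2 fold changes of Gad1 were 0.62 and -0.58. The Gad2 differences of specimen 4 from specimens 1 and 5 passed edgeR's test without any 1 of the 6 libraries, with log2 fold changes from 1.74 to 1.97 and from -1.54 to -1.34. The Gad1 call against specimen 1 was lost without the vehicle library of specimen 1 (log2 fold change 0.52, edgeR adjusted p = 0.204) or of specimen 5 (0.62, adjusted p = 0.0814). It was also lost without the palmitic acid library of specimen 1 (0.7, edgeR adjusted p = 0.119) or of specimen 5 (0.6, adjusted p = 0.126). The Gad1 call of specimen 5 against 4 was lost without any library other than the palmitic acid library of specimen 4. In those fits its log2 fold change was -0.57 without vehicle 1, -0.39 without vehicle 4 and -0.47 without vehicle 5 (edgeR adjusted p = 0.0618, 0.0545 and 0.403). It was -0.57 without palmitic acid 1 and -0.68 without palmitic acid 5 (edgeR adjusted p = 0.0609 and 0.251). Gad1 was nevertheless higher in each specimen 4 library than in all 4 others, as was Gad2, a pattern seen at 23.9% of genes.

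Within a treatment, the ratio of specimen 4 to specimen 1 for Gad2 was 3.46 with vehicle (exact 95% counting interval 3.38 to 3.53) and 3.84 with palmitic acid (3.76 to 3.93). For Gad1 it was 1.75 with vehicle (1.71 to 1.79) and 1.34 with palmitic acid (1.31 to 1.37). Under each treatment the excess in specimen 4 was larger for Gad2 than for Gad1.

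**Figure D3:**
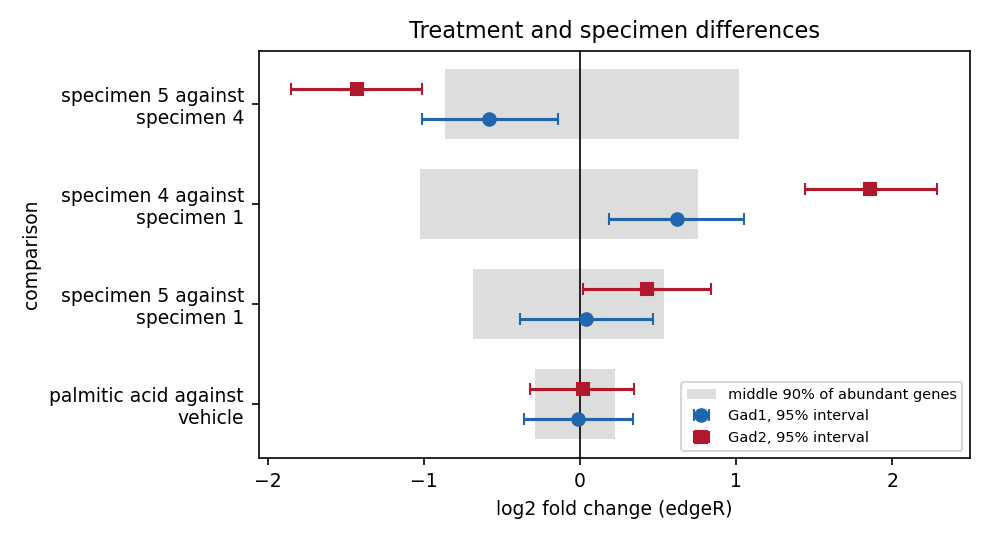
Log2 fold changes from edgeR for Gad1 (circles) and Gad2 (squares) with 95% intervals, in 1 treatment comparison and 3 specimen comparisons. Grey bars span the middle 90% of 601 abundant genes. Both genes sit at -0.01 and 0.02 for palmitic acid, whereas Gad2 lies at 1.86 for specimen 4 against 1 and at -1.43 for specimen 5 against 4, outside the grey bars.

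Over all genes, differences of these sizes between specimens 4 and 1 were not rare. Of all 13938 genes tested, 441 others had a log2 fold change at least as high as that of Gad2. For Gad1 there were 2547 others. Of 65 other genes with a mean log2 CPM at or above that of Gad2, 0 had a log2 fold change as high. For Gad1 it was 14 of 102. Those means take in the specimen 4 libraries, where both members were highest. Each set of genes thus depends on the difference being described, and these 2 counts are a description only. Among the 1867 genes called higher in specimen 4, Gad2 was number 418 by log2 fold change and Gad1 number 1714.

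The balance between the 2 decarboxylase transcripts also differed between specimens. Reads are not comparable between genes of different length, so the ratio of Gad2 to Gad1 reads has meaning only across libraries. It was 1.01 in the vehicle library of specimen 1 (exact 95% counting interval 0.981 to 1.03), 1.99 in that of specimen 4 (1.95 to 2.02) and 1.2 in that of specimen 5 (1.18 to 1.23). With palmitic acid it was 0.852 (0.831 to 0.875), 2.45 (2.41 to 2.5) and 1.22 (1.2 to 1.25). Libraries of the same specimen lay nearer to each other on the log2 scale than to those of other specimens, with specimen 4 highest and specimen 1 lowest. For specimens 1 and 5 this held by a small margin. The log2 ratios were 0.01 (vehicle) and -0.23 (palmitic acid) in specimen 1, and 0.27 in the vehicle library of specimen 5. The counting intervals leave out the spread between cultures, and the difference in ratio between specimens was not tested.

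The ratio showed no common response to palmitic acid. On the log2 scale its differences were -0.24, 0.3 and 0.02 for specimens 1, 4 and 5, a mean of 0.03 ± 0.27 (SD, n = 3; exact two-sided sign-flip permutation p = 0.75, smallest possible 0.25). The ratio does not depend on how libraries are scaled. The counts do not separate the transcript forms of either gene, including the truncated embryonic forms known for Gad1.

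**Figure D4:**
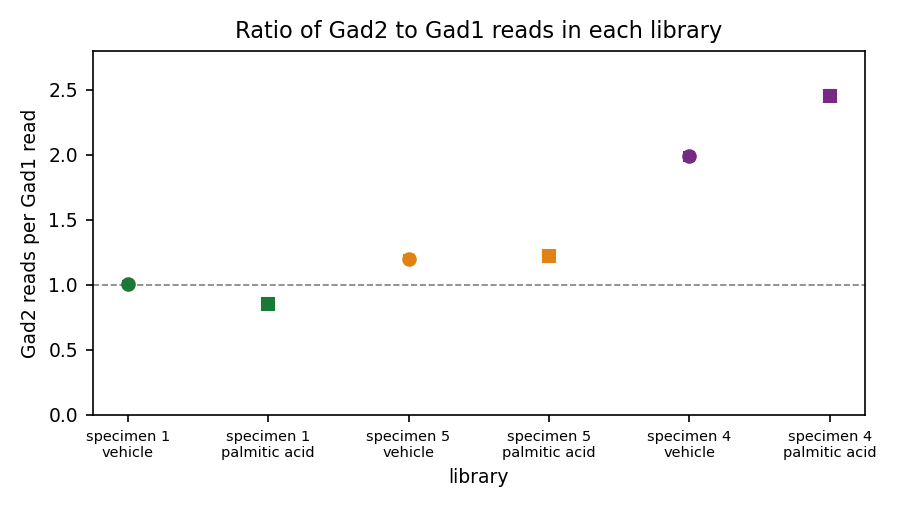
Gad2 reads per Gad1 read in each of 6 libraries, ordered by specimen, with exact 95% counting intervals that are mostly hidden by the symbols. Circles are vehicle and squares palmitic acid, colours mark specimens, and the dashed line marks a ratio of 1. The specimen 4 libraries lie at 1.99 and 2.45 and the other 4 between 0.852 and 1.22.

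The profiles of Gad1 and Gad2 over the 6 libraries correlated at r = 0.931 in log2 CPM, a description over libraries that share 3 specimens and differ mainly by specimen 4. Their distance was 1.31 in centred log2 CPM. By this measure 9122 of 13936 other genes lay nearer to Gad1 than Gad2 did, and 1550 lay nearer to Gad2 than Gad1 did. The genes of most similar pattern were sought by distance to the mean of the 2 centred profiles, from which Gad1 and Gad2 each lay 0.655. The nearest was ENSRNOG00000003104, at a distance of 0.0963, with 11.51, 27.11 and 13.1 CPM in the vehicle cultures of specimens 1, 4 and 5 and 11.58, 26.95 and 14.43 CPM in the palmitic acid cultures. The next was ENSRNOG00000014686, at a distance of 0.106, with 119.1, 278.6 and 129.2 CPM and 111.3, 244.2 and 137.4 CPM. Both have the order of specimens seen in Gad1 and Gad2, at lower levels, which follows from picking them by likeness over these same libraries. Their log2 fold changes for specimen 4 against 1 were 1.23 and 1.18, between those of Gad1 (0.62) and Gad2 (1.86). They thus resemble the mean profile more than either member does. The files do not pair these identifiers with names.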

How the data were processed

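The authors deposited raw read counts per Ensembl rat gene identifier for 6 libraries, sequenced as pairs of 125 bases from 500 ng of RNA per the labels' protocols. Tools named, per the submitters' processing notes and with no role given, include STAR 2.7.1a, Salmon 0.14.1 and featureCounts, with Trimmomatic 0.39. Genome build, annotation and strand setting were not given in the sources used here, and reads shared with overlapping genes were not separated.

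Each column matched 1 sample title. The test was edgeR 4.0.16 in R 4.3.3 (quasi-likelihood, TMM, filterByExpr with a minimum count of 10), with the specimen as a block and treatment as terms, adjusted by Benjamini-Hochberg over 13938 genes at 0.05. Both members passed the filter. An SE is the log2 fold change divided by the square root of F. Log2 CPM used a prior count of 2. The block was used because the labels give each specimen number once per treatment. After subtracting group means, the libraries of specimens 1, 4 and 5 correlated in pairs at 0.771, 0.89 and 0.855. No library was a copy of another (chi-square per degree of freedom at least 7.94, where sampling noise gives about 1). The labels do not say whether cultures were separate beyond the specimen. The p-values of this fit rest on the spread of these cultures left after the specimen and treatment terms. That spread has 2 residual degrees of freedom per gene, and the fit borrows across genes. It is not the spread between specimens.

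Alternatives were no block, DESeq2 1.42.0, limma 3.58.1 with voom, DESeq2 size factors, other filters and leaving out libraries or specimens. On simulated data over 13938 genes for palmitic acid against vehicle, this fit found 92.4% of 66 genes altered 4-fold. It found 58.2% of 67 altered 2-fold and 14.9% of 67 altered 1.5-fold. Beside these 61, 39 and 10 true calls stood 18 false ones. For specimen 4 against 1, simulated with all other genes equal between specimens, the shares were 90.9%, 40.3% and 8.96%. There 19 false calls stood beside 60, 27 and 6 true ones. In both simulations the false calls were a larger share of all calls than the threshold of 0.05 is meant to allow. The Gad1 calls between specimens, at edgeR adjusted p = 0.0404 and 0.0485, lie close to that threshold and are to be read with this in mind. The members and lists were chosen with earlier results of these data known. Named genes are the 2 members and the 4 genes nearest to their mean profile, of which 2 are printed. Lists of GABA pathway genes and of cell type markers, held as symbols, were not used here, since no table at hand links them to Ensembl identifiers.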

Additional observations from a re-analysis of the deposited data

Results flagged for a closer look

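The change with palmitic acid went in different directions in different specimens for both genes, with 1 culture per treatment in each specimen, so the difference between specimens was not tested. For Gad1 the log2 ratio of palmitic acid to vehicle took the values 0.11, -0.29 and 0.15 for specimens 1, 4 and 5. For Gad2 the values were -0.13, 0.02 and 0.17 in the same order.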

How the results depend on the processing

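Neither gene passed for palmitic acid against vehicle in any of 9 alternatives. The Gad1 log2 fold change ran from -0.11 to 0.13 with 1 specimen left out, and was positive without specimen 4 only. That of Gad2 ran from -0.08 to 0.09, negative without specimen 5 (-0.08) and with no filter (-0.01). Removing the replicate block gave -0.05 and 0.03 in edgeR, with adjusted p = 1 for both, and changed no call. Genes called higher and lower were 0 and 0 in the paired edgeR fit, 2 and 4 in DESeq2, and 2 and 1 with no filter. With 1 specimen left out there were 2 to 4 higher and 1 to 4 lower, in fits with fewer degrees of freedom. For specimen 4 against 1, Gad2 passed in 11 of 11 alternatives (1.74 to 1.97) and Gad1 in 7 of 11 (0.45 to 0.82). For specimen 5 against 4, Gad2 passed in 11 of 11 (-1.54 to -1.34) and Gad1 in 6 of 11 (-0.81 to -0.39). For specimen 5 against 1, neither gene passed in 11 alternatives. Gad2 ran from 0.31 to 0.54, and Gad1 from -0.08 to 0.14, negative without the vehicle library of specimen 1 (-0.05) or the palmitic acid library of specimen 5 (-0.08).

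With single libraries left out, the lone library of a specimen is assumed to vary like the others. Counts then ran from 893 to 2800 higher and 1825 to 3130 lower for specimen 4 against 1, from 120 to 948 and 15 to 628 for specimen 5 against 1, and from 1846 to 3244 and 696 to 2602 for specimen 5 against 4. For specimen 5 against 1, where the main counts were 314 and 93, DESeq2 gave 622 and 255 and no filter 523 and 168. The cause was not tested for any of these. Gad1 and Gad2 had at least 10717 reads in every library, so counting error on their values was small.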
